A study of Mus musculus with 15 samples.

Results

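The 9 genes described here encode NADPH oxidase subunits (Nox1, Nox4, Cybb, Cyba, Ncf1 and Ncf4) and the superoxide dismutases (Sod1, Sod2 and Sod3), and were taken by symbol from the 24982 gene symbols in the RNA-Seq counts of 15 mouse aortas. Each library was made from the whole aorta of 1 wild-type male C57BL/6 mouse aged 10 months. The 3 groups of 5 mice were sham-operated controls, orchiectomized mice, and orchiectomized mice given a pellet of dihydrotestosterone (DHT), the androgen into which testosterone is converted in many tissues. All 15 mice, controls included, had 2 weeks to recover from surgery and then 7 days of Aldo-salt, that is aldosterone by minipump at 200 µg/kg per day with 0.9% NaCl and 0.2% KCl in the drinking water, so there was no group without Aldo-salt. DHT was given to orchiectomized mice only. Reads assigned to genes numbered 8268957 to 13816864 per library, and 10 counts in a library corresponded to between 0.687 and 1.28 CPM, that is, counts scaled to a library of 1000000 reads on genes. A whole aorta holds several cell types, and in these libraries the 8 smooth muscle markers listed (Myh11, Acta2 and others) summed to 10571 to 25082 CPM, and all 8 passed the filter on low counts. In bulk tissue, fewer cells of a type and less RNA per cell cannot be told apart.

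NADPH oxidases pass electrons from NADPH across a membrane to oxygen and are built around a catalytic subunit. In the phagocyte enzyme that subunit is Nox2, encoded by Cybb, which works only when cytosolic proteins, among them those of Ncf1 (p47phox) and Ncf4 (p40phox), and a Rac GTPase join it, whereas Nox4 of vascular smooth muscle makes mostly hydrogen peroxide without cytosolic partners, and Nox1 takes Noxo1 and Noxa1 as its organizer and activator. Cyba encodes p22phox, the membrane partner that Nox1, Nox2 and Nox4 share. Superoxide dismutases turn superoxide into hydrogen peroxide in the cytosol (Sod1), the mitochondria (Sod2) and the extracellular matrix (Sod3), where Sod3 of the arterial wall is made largely by smooth muscle.

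A region 5′ of the start site was looked at for the oxidase genes that moved together, and 7 of the 9 genes had an entry in the RefSeq promoter set (GRCm38.p6), with none for Ncf4 and Sod3. The 250 bases before the start are shown for Cybb and Ncf1, which encode partners in 1 enzyme and were both lower with DHT, and for Nox4, which was not. Capitals mark AGGAA, the core letters that ETS-family factors such as the myeloid factor PU.1 bind, and AGAACA, a half-site of the androgen receptor element. Both motifs were searched on both strands, do not overlap each other, and were settled on after the sequences had been seen.
Cybb, chrX:9469325-9469574, minus strand: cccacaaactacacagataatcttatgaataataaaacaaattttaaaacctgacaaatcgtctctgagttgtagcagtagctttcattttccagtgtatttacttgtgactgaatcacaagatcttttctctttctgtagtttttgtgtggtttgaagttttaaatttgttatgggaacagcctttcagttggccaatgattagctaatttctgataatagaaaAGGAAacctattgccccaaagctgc
Ncf1, chr5:134229626-134229875, minus strand: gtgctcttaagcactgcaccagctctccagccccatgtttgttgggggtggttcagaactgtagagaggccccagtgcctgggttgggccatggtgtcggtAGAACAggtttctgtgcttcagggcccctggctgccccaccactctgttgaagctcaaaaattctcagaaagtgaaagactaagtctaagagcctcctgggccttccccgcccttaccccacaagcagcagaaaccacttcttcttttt
Nox4, chr7:87246399-87246648, plus strand: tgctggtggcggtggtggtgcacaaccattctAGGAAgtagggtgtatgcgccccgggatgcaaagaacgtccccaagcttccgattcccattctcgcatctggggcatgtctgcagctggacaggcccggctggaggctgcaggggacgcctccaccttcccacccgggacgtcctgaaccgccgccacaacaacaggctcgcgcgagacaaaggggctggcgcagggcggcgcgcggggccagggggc
The Cybb window had AGGAA at 25 to 21 bases before the start, and the Nox4 window had it at 218 to 214 bases. Over the 7 genes, AGGAA or its reverse complement was in the windows of 4 (Cybb, Nox1, Nox4 and Sod2), beside 60.3% of all 32851 RefSeq promoter windows of that length. AGAACA was in the window of Ncf1 alone, at 149 to 144 bases before the start, beside 16.1% of all windows. The windows also differed in base composition, with 34% G and C in that of Cybb, 54.4% in that of Ncf1 and 67.2% in that of Nox4. These letters are a description of the windows and not binding sites.

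The members covered a wide range of levels. Per length, as CPM per kilobase of the longest protein-coding transcript (RPKM, mean ± SD over the 15 libraries), the order was Sod1 (476 ± 111), Sod3 (297 ± 65.5), Cyba (94.6 ± 26.2), Nox4 (89.3 ± 27.6), Sod2 (51.2 ± 19.3), Ncf1 (4.2 ± 1.97), Cybb (3.60 ± 1.59), Ncf4 (2.30 ± 1.54) and Nox1 (0.0074 ± 0.015). The dismutases and the membrane subunits Nox4 and Cyba were thus the abundant members, and the phagocyte subunits the scarce ones. Sod1 was above Sod3 in 15 of 15 libraries, although the 2 ranges over libraries overlapped. Cyba was above Nox4 in 7 of 15 libraries on this scale. Nox4 was above Sod2 in 12 of 15 libraries, Ncf1 above Cybb in 10 and Cybb above Ncf4 in 14, each with overlapping ranges. The only neighbours whose ranges did not overlap were Sod3 and Cyba, Sod2 and Ncf1, and Ncf4 and Nox1. These levels rest on the length used, a choice made after the values were seen. With the bases of all annotated exons (3970 in place of 641 for Sod1) the mean of Sod1 was 76.8 RPKM and Sod3 came first, and Cyba (67.7 RPKM) was above Nox4 (39.6 RPKM) in 15 of 15 libraries.

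**Figure D1:**
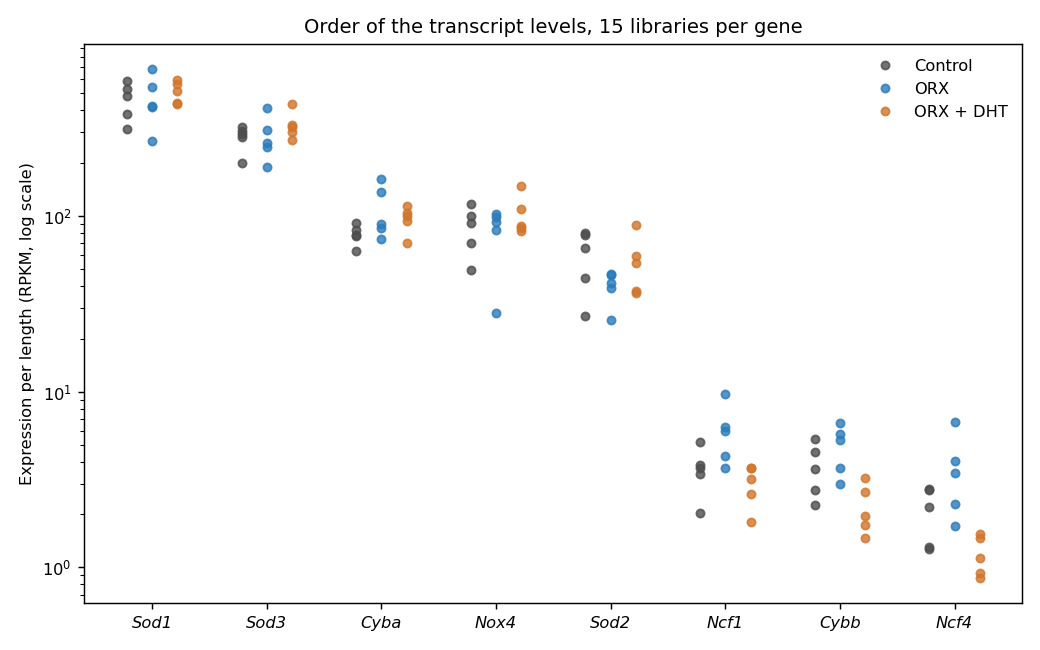
Expression per length (RPKM, log scale) of 8 members in each library, with genes on the horizontal axis in order of their mean and 1 point per aorta, coloured by group (ORX, orchiectomized). Sod1, Sod3, Cyba, Nox4 and Sod2 are at 25.4 RPKM or more in every library, and Ncf1, Cybb and Ncf4 at 9.64 RPKM or less; Nox1, with 3 counts in all, is not drawn.

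Nox1 was almost absent from the libraries. It had 1 count in 1 control library, 1 count in each of 2 orchiectomized libraries and 0 counts in all 5 DHT libraries, of 56751607, 57203535 and 49328667 reads on genes in the 3 groups. A count of 0 in the DHT group allows up to 3 counts, or 0.0608 CPM, and the other groups were under that floor too, so no fold change was computed. Exons of Nox1 share 399 bases with those of Cstf2 on the other strand. The other 8 members passed the filter on low counts, with 14121 genes tested in all. A gene was called at an unadjusted P value under 0.01, the threshold used in the study, and the P values printed for single genes are adjusted over all genes tested, so a called gene can have an adjusted P value above 0.05.

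Cybb, the catalytic subunit of the phagocyte oxidase, was lower in the mice given DHT. Its level in the 5 control libraries, replicates 1 to 5, was 10.8, 13.1, 17.3, 21.5 and 25.5 CPM. The orchiectomized mice had 14.1, 31.6, 27.3, 25.3 and 17.6 CPM. With DHT the values were 7.01, 15.2, 12.8, 8.27 and 9.31 CPM. Of the 5 DHT libraries, 4 were below every orchiectomized library, and the fifth, replicate 2, was above only 1 of them. The means were 23.2 ± 7.17 CPM in the orchiectomized and 10.5 ± 3.40 CPM in the DHT mice (SD, n = 5), a log2 fold change of -1.14 (SE 0.28, adjusted P = 0.0343), or 2.20-fold lower. Against control, Cybb with DHT had a log2 fold change of -0.74 (95% interval -1.35 to -0.14, adjusted P = 0.343) and was not called. Orchiectomized and control mice differed by 0.39 (interval -0.19 to 0.98, adjusted P = 0.571), or by 0.25 without orchiectomized replicate 2.

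Ncf1 encodes p47phox, the organizer that is phosphorylated when the phagocyte oxidase is switched on. It was at 5.89, 9.74, 10.9, 10.6 and 15 CPM in the control libraries and at 12.4, 27.8, 17.3, 18.1 and 10.6 CPM in the orchiectomized ones. The DHT libraries had 5.22, 10.6, 7.56, 9.13 and 10.6 CPM, of which 4 lay below all the orchiectomized libraries. From 17.2 ± 6.71 to 8.62 ± 2.28 CPM, Ncf1 fell by 1.00 on the log2 scale with DHT (SE 0.29, adjusted P = 0.0574). Without orchiectomized replicate 2, which has the highest value, this was -0.75 and no longer a call. In orchiectomized against control mice the log2 fold change was 0.72 (interval 0.12 to 1.33, adjusted P = 0.354; 0.48 without orchiectomized replicate 2), and in DHT against control mice -0.28 (adjusted P = 0.729), neither called. Exons of Ncf1 share 408 of 3663 bases with Gtf2ird2 on the other strand, and whether the counting used strand is not given in the sources used here, so reads in that stretch cannot be told apart. Gtf2ird2 itself had 60 to 163 counts per library.

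Ncf4, which encodes p40phox and binds a phosphoinositide of the phagosome membrane, was the only member whose groups did not overlap. Its control libraries had 1.90, 1.87, 3.23, 4.04 and 4.11 CPM, the orchiectomized libraries 3.34, 9.82, 5.07, 5.91 and 2.52 CPM, and the DHT libraries 1.28, 2.16, 1.67, 1.36 and 2.28 CPM. All 5 DHT libraries thus lay below all 5 orchiectomized libraries, which was so for 6.43% of the genes tested, in either direction. Ncf4 fell by 1.60 on the log2 scale (SE 0.37, adjusted P = 0.0262), or 3.03-fold. It was also the least deeply counted of the 8, at 11 to 24 counts per DHT library and 31 to 111 per orchiectomized library. Its log2 fold change was 0.81 in orchiectomized against control mice (adjusted P = 0.395; 0.47 without orchiectomized replicate 2) and -0.79 in DHT against control mice (adjusted P = 0.419), neither called.

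Cyba, the membrane partner of Nox1, Nox2 and Nox4, was not called in any comparison. The control libraries had 46.9, 57.2, 61.7, 67.7 and 57.5 CPM and the DHT libraries 69.6, 77.1, 84.9, 52.1 and 73.8 CPM. The orchiectomized libraries split, with replicates 1 and 2 at 101 and 120 CPM and the other 3 at 54.9, 63.1 and 67.2 CPM. The log2 fold change was -0.18 with DHT against orchiectomy (interval -0.61 to 0.24, adjusted P = 0.635) and 0.48 in orchiectomized against control mice (adjusted P = 0.373). Without orchiectomized replicate 2 the latter was 0.28 and the former 0.02.

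Nox4, the catalytic subunit of the smooth muscle oxidase, was not called in any comparison. Control libraries were at 343, 372, 184, 439 and 264 CPM. In the DHT libraries Nox4 was at 551, 408, 328, 318 and 307 CPM, and in the orchiectomized libraries at 344, 105, 384, 312 and 367 CPM. Orchiectomized replicate 2 was the lowest of all 15 libraries, the next being a control library at 184 CPM, and otherwise the groups overlapped. The log2 fold change was -0.08 in orchiectomized against control mice (interval -0.74 to 0.57, adjusted P = 0.936) and 0.34 with DHT against orchiectomy (interval -0.31 to 0.99, adjusted P = 0.563). Without orchiectomized replicate 2 these were 0.12 and 0.14.

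**Figure D2:**
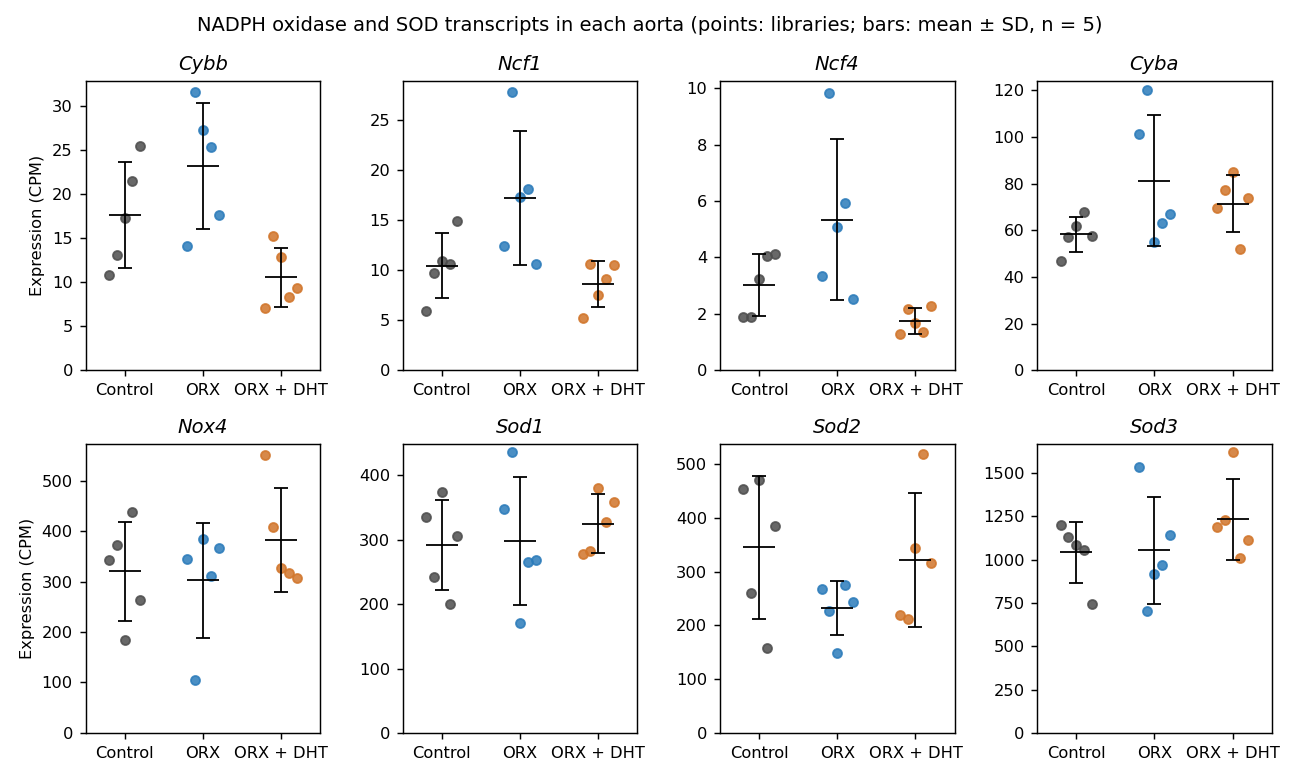
Expression (CPM, linear axis from 0) of the 8 tested members in each library, with the 5 replicates of a group drawn from left to right and the group mean ± SD as bars. In the panels of Cybb, Ncf1 and Ncf4 the DHT points lie low, with means of 10.5, 8.62 and 1.75 CPM against 23.2, 17.2 and 5.33 CPM in the orchiectomized mice, while the dismutases overlap across groups.

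The dismutases were not called in any comparison. Sod3, the extracellular form and by CPM the highest member, had 1198, 1130, 1085, 1055 and 744 CPM in control libraries, 1532, 706, 918, 969 and 1143 CPM in orchiectomized libraries and 1190, 1231, 1623, 1010 and 1112 CPM in DHT libraries. These ranges overlapped throughout, and the log2 fold changes were 0.02 in orchiectomized against control mice (interval -0.40 to 0.44, adjusted P = 0.983) and 0.23 with DHT against orchiectomy (interval -0.19 to 0.65, adjusted P = 0.545). Sod1, the cytosolic copper and zinc enzyme, ranged over 201 to 375 CPM in control, 171 to 436 CPM in orchiectomized and 278 to 381 CPM in DHT mice, with medians of 306, 269 and 327 CPM. Its log2 fold changes were 0.03 (interval -0.44 to 0.50, adjusted P = 0.972) and 0.13 (interval -0.34 to 0.60, adjusted P = 0.789) in the same comparisons. The signs of the 2 changes near 0 in orchiectomized against control mice, for Sod1 and Sod3, turned under other scalings or filters.

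Sod2, the mitochondrial manganese enzyme, had the largest ratio of highest to lowest library among the dismutases (3.5, against 2.55 for Sod1 and 2.3 for Sod3). The control libraries had 454, 261, 470, 158 and 385 CPM, and the DHT libraries 219, 212, 345, 520 and 316 CPM. The orchiectomized libraries were closer together, at 268, 228, 149, 275 and 244 CPM, all below the control mean of 346 CPM. The log2 fold change was -0.57 in orchiectomized against control mice (interval -1.21 to 0.07, adjusted P = 0.455) and 0.47 with DHT against orchiectomy (interval -0.17 to 1.11, adjusted P = 0.392; 0.25 without DHT replicate 4). Sod2 made up 7.23% ± 1.94 of the summed dismutase RPKM in control, 5.10% ± 0.894 in orchiectomized and 6.15% ± 2.34 in DHT mice, while Sod1 made up 57.0% ± 5.91, 58.2% ± 9.75 and 56.9% ± 3.08 and Sod3 the rest (SD, n = 5). By the bases of all exons, Sod1 made up 19.1%, 20.2% and 18.6% and Sod3 72.1%, 73.6% and 74.1%, so these shares depend on the length used.

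Counted over the members, 0 of the 8 were called in orchiectomized against control mice with edgeR, beside 3.22% of all genes tested (2.08% higher and 1.13% lower). DESeq2 called 0 as well, and 3 members (Cyba, Ncf1 and Ncf4) had an unadjusted P value under 0.05, beside 12% of all genes. With DHT against orchiectomy, 3 of 8 were called, all lower (Cybb, Ncf1 and Ncf4), beside 9.72% of all genes, of which most were lower (7.27% lower and 2.46% higher). Cybb and Ncf4 also had an adjusted P value under 0.05, as did 4.72% of all genes. With DHT against control, 0 of 8 were called by edgeR or DESeq2 beside 3.53% of all genes (1.52% higher and 2.01% lower), and 2 had a P value under 0.05 (Cybb and Ncf4), beside 11.8% of all genes. At the adjusted threshold, 0% of genes were called in the first comparison and 0.262% in the last, none of them members. Members without overlap between groups numbered 0 in these 2 comparisons, beside 1.51% and 3.58% of genes. The median log2 fold change of the 8 members was 0.21, -0.03 and 0.03 in the 3 comparisons, beside 0.04, -0.02 and -0.0029 over all genes. The comparisons share groups of mice, so the higher values in orchiectomized libraries enter the first with 1 sign and the second with the other.

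**Figure D3:**
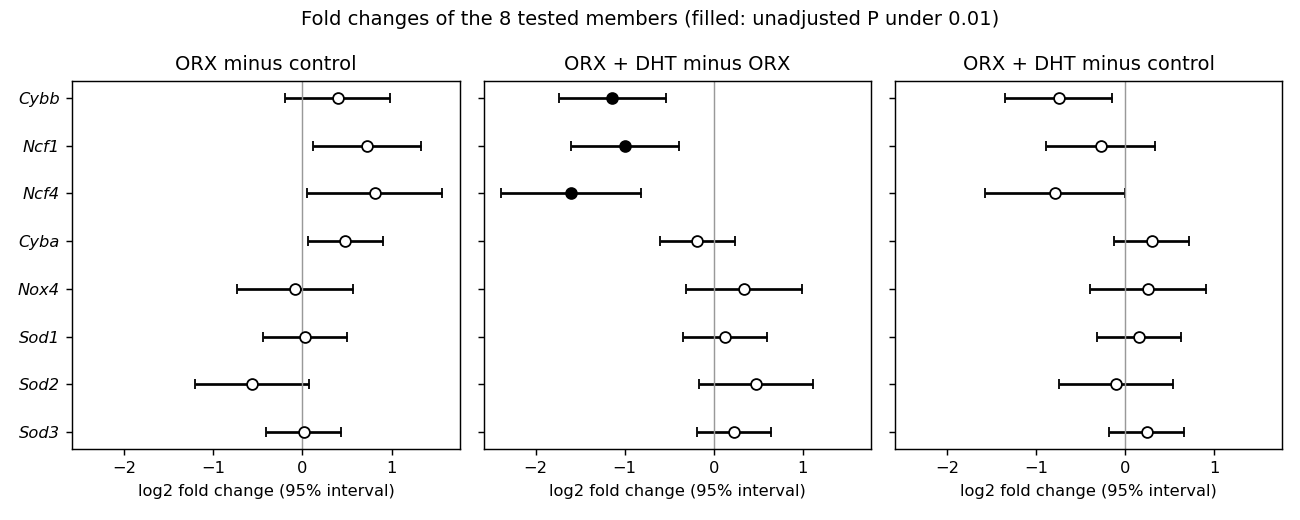
Log2 fold change of the 8 tested members (points) with the 95% interval (bars) in the 3 comparisons, 1 per panel, from the edgeR fit to all 15 libraries (ORX, orchiectomized; filled points, unadjusted P under 0.01). In the middle panel Cybb (-1.14), Ncf1 and Ncf4 (-1.60) are filled and lie left of 0, and in the outer panels no point is filled.

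The balance between the 2 main catalytic subunits was compared directly, a test added after the values had been seen. By RPKM, Nox4 exceeded Cybb by a median factor of 25.9 in control (13.1 to 40.4), 17.8 in orchiectomized (4.23 to 30.9) and 41.8 in DHT mice (32.4 to 99.5), or 14.0, 9.65 and 22.6 by the bases of all exons. The ratio tests do not involve length. The log2 level of Cybb relative to Nox4 was 1.55 lower with DHT than after orchiectomy alone (-5.17 ± 0.64 against -3.62 ± 1.13, SD, n = 5), with no overlap between groups (two-sided P = 0.0079 in an exact permutation test, which can give no smaller value; adjusted over the 6 added tests 0.024). Without orchiectomized replicate 2 the difference was -1.08 (exact P = 0.0159). The same ratio was 1.00 lower with DHT than in control mice (exact permutation P = 0.063, adjusted 0.095) and 0.55 higher in orchiectomized than in control mice (exact permutation P = 0.45, adjusted 0.54), or 0.081 higher without orchiectomized replicate 2, with groups that overlapped in both comparisons. Cybb relative to Cyba was 1.00 lower on the log2 scale with DHT than in control mice, also without overlap (exact permutation P = 0.0079, adjusted 0.024), and 0.98 lower than after orchiectomy (exact permutation P = 0.032, adjusted 0.063). With DHT against orchiectomy the median log2 fold change was -0.76 over 10 macrophage markers and 0.43 over 8 smooth muscle markers. The part of cell content in these ratios was not tested.

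Other genes of NADPH oxidase complexes were taken from a list of 14, of which 9 passed the filter. In orchiectomized against control mice, 2 of these 9 rose and 0 fell (beside 2.08% and 1.13% of all genes), namely Rac2, the Rac GTPase of blood cells, from 10.8 ± 2.02 to 25.7 ± 16.0 CPM (log2 fold change 1.25, adjusted P = 0.261), and Hvcn1, the proton channel that balances the charge moved by the phagocyte oxidase, from 2.96 ± 1.22 to 6.81 ± 3.68 CPM (1.20, adjusted P = 0.288). With DHT against orchiectomy 2 fell and 1 rose, beside 7.27% and 2.46% of all genes. Rac2 fell by 1.47 on the log2 scale (adjusted P = 0.0297) and Hvcn1 by 1.22 (adjusted P = 0.0723). Rac2 was still called without any 1 library, while the calls of Hvcn1 were each lost without 5 of the 15 libraries left out in turn, among them orchiectomized replicate 2 (0.84 against control and -0.85 with DHT). Both are known as partners of the Cybb enzyme. Noxo1, the organizer that pairs with Nox1, rose from 5.66 ± 0.75 to 9.64 ± 1.99 CPM (0.77, adjusted P = 0.0271), and from 5.81 ± 1.02 CPM in control mice (0.73, adjusted P = 0.113), with no overlap in either comparison. Groups did not overlap for 6.43% and 3.58% of all genes in these 2 comparisons, in either direction. Exons of Noxo1 share 2122 of 3013 bases with Tbl3 on the other strand and those of Hvcn1 share 1574 of 3563 with Tctn1, so part of those reads cannot be told apart from the neighbours. Tbl3 had a log2 fold change of 0.23 (adjusted P = 0.132) and Tctn1 of -0.24 (adjusted P = 0.295) with DHT against orchiectomy. The part of shared reads in the values of Noxo1 and Hvcn1 was not tested. The Nox1 activator Noxa1 had 0 to 3 counts per library. Rac1, the widely expressed Rac GTPase, was at 346 ± 35.2, 349 ± 24.2 and 363 ± 30.4 CPM in the control, orchiectomized and DHT mice, and Cybc1, the chaperone of the Cybb and Cyba dimer, had a log2 fold change of -0.13 with DHT against orchiectomy (adjusted P = 0.598). In DHT against control mice Noxo1 was the 1 gene of this list called, beside 3.53% of all genes.

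Enzymes that act downstream of superoxide were called at shares near or below those of all genes (3.22%, 9.72% and 3.53% in the 3 comparisons). For the counts at a P value under 0.05 in these lists and among the markers, the shares of all genes were 12%, 21.2% and 11.8%. Of 20 tested genes for peroxide removal and copper loading of the dismutases, 0 were called in orchiectomized against control mice by edgeR or DESeq2, with 4 at an unadjusted P value under 0.05. With DHT against orchiectomy, Gpx8, a peroxidase of the endoplasmic reticulum, fell by 0.44 on the log2 scale (adjusted P = 0.0591), from 110 ± 14.8 to 80.9 ± 15.8 CPM, and was the only one called by edgeR, while DESeq2 also called Gpx4. The edgeR call was lost without orchiectomized replicate 1, DHT replicate 4 or DHT replicate 5. Gpx3, the secreted glutathione peroxidase, was at 753 ± 264, 687 ± 206 and 1096 ± 358 CPM in the 3 groups (0.67 with DHT against orchiectomy, adjusted P = 0.195), and Ccs, the copper chaperone of Sod1, differed by -0.01 (adjusted P = 0.967). In DHT against control mice 0 of the 20 were called by either tool, and 0 had a P value under 0.05. Of 9 tested genes of the NRF2 pathway, the main transcriptional answer to oxidants, 0 were called by edgeR in each of the 3 comparisons, with 1, 2 and 1 at a P value under 0.05, and DESeq2 called 0, 0 and 1 (Gstm1). Among 10 tested genes for other oxidant sources, 0 were called in orchiectomized against control mice (2 at P under 0.05; DESeq2 called Aox1). Alox15, a lipoxygenase of macrophages and eosinophils, fell with DHT against orchiectomy by 3.50 on the log2 scale (SE 0.96, adjusted P = 0.0495), from 1.18 to 18.9 CPM in orchiectomized to 0.256 to 0.991 CPM in DHT libraries, with only 2 to 11 counts per DHT library. Without orchiectomized replicate 2 this was -2.53 and not a call. In DHT against control mice its log2 fold change was -2.24 (adjusted P = 0.378), called by DESeq2 and not by edgeR. Nos3, the endothelial nitric oxide synthase, fell in DHT against control mice by 0.68 (adjusted P = 0.0464), from 55.2 ± 7.50 to 34.5 ± 6.77 CPM, and of its 4132 exonic bases 1040 are shared with Gm15587 and 294 with Atg9b, both on the other strand. In the same comparison 3 of the 8 endothelial markers also fell (beside 2.01% of all genes), Pecam1 by 0.47, Vwf by 0.75 and Tek by 0.76 on the log2 scale (Vwf was not called without control replicate 4), and their part in the fall of Nos3 was not tested.

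Over these 4 lists, with 48 genes tested, 2 were called in orchiectomized against control mice, 5 with DHT against orchiectomy and 2 in DHT against control mice, shares close to the 3.22%, 9.72% and 3.53% of all genes. These counts turned on single libraries. The first was 1 without control replicate 1, 2 or 5 or orchiectomized replicate 2, and 4 without control replicate 4. The second was 3 without DHT replicate 4 or 5, and the third was 4 without DHT replicate 4.

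Markers of macrophages, which use the phagocyte oxidase, were examined beside these genes. The 10 macrophage markers, all tested, summed to 409 to 1064 CPM in control, 706 to 1575 CPM in orchiectomized and 380 to 747 CPM in DHT libraries. With DHT against orchiectomy 4 of the 10 fell (beside 7.27% of all genes), Cd14 by 1.40, Adgre1 (F4/80) by 1.23, Lyz2 by 1.15 and Csf1r by 0.77 on the log2 scale (none with an adjusted P value under 0.05), 0 rose, and the C1q genes C1qa, C1qb and C1qc had values of -0.12, -0.24 and -0.33 that were not called. DESeq2 called 3 of the 4, without Cd14. With orchiectomized replicate 2 left out, Cd14 was 0.58 and Lyz2 0.57 lower on the log2 scale, the latter no longer a call. With 1 library left out, 0 to 5 of the 10 were called lower, with 0 without DHT replicate 4 and 1 without DHT replicate 1. In orchiectomized against control mice 0 of the 10 were called by edgeR or DESeq2, with 2 at a P value under 0.05, and in DHT against control mice 0 were called by edgeR and 1 by DESeq2 (Adgre1), with 2 at a P value under 0.05. Relative to the mean log2 level of the 10 markers, Cybb was 0.42 lower with DHT than after orchiectomy (-1.63 ± 0.19 against -1.21 ± 0.21, SD, n = 5; exact two-sided permutation P = 0.032, adjusted over the 9 tests of this kind 0.29), and lower than the orchiectomized mean in 5 of 5 libraries. With DHT against control it was 0.31 lower (exact permutation P = 0.063, adjusted 0.29). Neither passed the correction, and leaving out any 1 of 6 of the 10 libraries took the first to an exact P value of 0.0635. The part of macrophage content in the fall of Cybb, Ncf1 and Ncf4 was not tested beyond this.

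**Figure D4:**
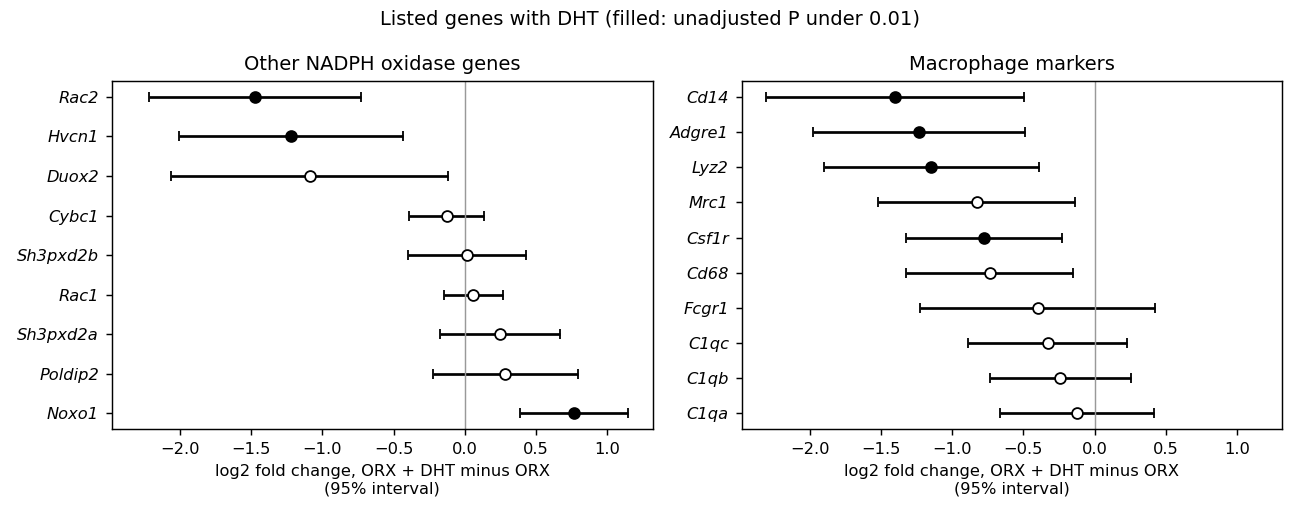
Log2 fold change with DHT against orchiectomy (points) and 95% interval (bars) of the 9 tested other NADPH oxidase genes (left) and the 10 macrophage markers (right), ordered by value (ORX, orchiectomized; filled points, unadjusted P under 0.01). Rac2 and Hvcn1 are filled below 0 and Noxo1 (0.77) above it, and all 10 macrophage markers lie below 0 with 4 filled.

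Lymphocytes and neutrophils also carry Cybb, Ncf1, Ncf4 or Rac2. The 8 T cell and B cell markers summed to 4.96 to 9.91 CPM in control, 8.72 to 160 CPM in orchiectomized and 3.08 to 13.6 CPM in DHT libraries. All 7 that were tested rose in orchiectomized against control mice (beside 2.08% of all genes) and fell with DHT against orchiectomy (beside 7.27%). Of the 7, 6 rose and 7 fell without orchiectomized replicate 2. The 8 neutrophil markers summed to 2.44 to 4.38, 9.56 to 37.0 and 4.41 to 13.9 CPM in the 3 groups, with 4 tested, of which 3 rose in orchiectomized against control mice, 3 fell with DHT against orchiectomy, and 2 (S100a8 and S100a9, by 1.94 and 1.89 on the log2 scale) were higher in DHT than in control mice, beside 2.08%, 7.27% and 1.52% of all genes. With 1 library left out the 3 counts ranged over 3 to 4, 1 to 4 and 0 to 2, and the last was 0 without control replicate 2 or 3 or DHT replicate 1 or 5. Orchiectomized replicate 2 had the highest sum of the macrophage, neutrophil and lymphocyte lists, the highest level of Cybb, Cyba, Ncf1, Ncf4 and Sod1 of all 15 libraries, and the lowest of Nox4 and Sod3. Without it, Cybb had a log2 fold change of -0.99 and Ncf4 of -1.25 with DHT against orchiectomy, both still called, so that 2 members were called in place of 3. The part of these cells in the members' levels was not tested.

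Across the 15 libraries the strongest positive correlations of Cybb, Nox4 and Sod2 with marker lists were with macrophage, smooth muscle and adipocyte markers (56 pairs of 8 members and 7 marker lists, correlations added after the data were seen, permutation P values adjusted over the 56). Cybb followed the macrophage markers with Pearson r = 0.919 (adjusted permutation P = 0.00019) and Spearman rho = 0.921 (adjusted permutation P = 0.00056), and r was 0.932 without the 2 libraries farthest from the median. Cybb also correlated with the fibroblast markers (r = 0.767, adjusted permutation P = 0.0036; rho = 0.786, adjusted permutation P = 0.0088; 0.676 without the 2 farthest) and with the T cell and B cell markers (r = 0.757, adjusted permutation P = 0.0033; rho = 0.757, adjusted permutation P = 0.0088; 0.641 without the 2 farthest). Ncf1 followed the macrophage markers with r = 0.883 and the T cell and B cell markers with r = 0.842. Ncf4 had r = 0.84 and 0.83 with these lists (each adjusted permutation P 0.0007 or less). Nox4 followed the smooth muscle markers with r = 0.909 (adjusted permutation P = 0.00028) and rho = 0.779 (adjusted permutation P = 0.0088), with r = 0.751 without the 2 farthest libraries, of which orchiectomized replicate 2 is 1. Against the endothelial markers, which share the same libraries, r was -0.903 for Nox4 (adjusted permutation P = 0.00028; rho = -0.743, adjusted permutation P = 0.012; -0.716 without the 2 farthest). Relative to the smooth muscle markers Nox4 differed between groups by at most 0.03 on the log2 scale in the 3 comparisons (exact permutation P = 0.87 to 0.98), and by 0.04, -0.17 and -0.13 relative to Myh11 alone (exact permutation P = 0.35 to 0.80). Sod2 followed the adipocyte markers with r = 0.898 and rho = 0.918 (adjusted permutation P = 0.00019 and 0.00056), and r = 0.845 without the 2 farthest. With group means removed, r was 0.893 for Cybb (macrophage markers), 0.918 for Nox4 (smooth muscle) and 0.885 for Sod2 (adipocyte). It was 0.49 for Cybb and the fibroblast markers, and 0.681 for Cybb and the T cell and B cell markers. For Ncf1 it was 0.861 (macrophage) and 0.697 (T cell and B cell), and for Ncf4 0.755 and 0.724. Groups of 5 are too small for a value within each. The 8 adipocyte markers summed to 1780 to 6351 CPM in control, 1890 to 3613 CPM in orchiectomized and 2139 to 5914 CPM in DHT libraries, a range in which the orchiectomized mice were narrow, as they were for Sod2. In orchiectomized against control mice 1 of the 8 adipocyte markers fell (Lep, by 1.85 on the log2 scale, not called without control replicate 5), beside 1.13% of all genes. With 1 library left out, 0 to 4 of the 8 were called lower. Of these 8, 4 had a P value under 0.05, and their median log2 fold change was -0.73, beside -0.57 for Sod2. The part of adipocyte content in the level of Sod2 was not tested. Sod3 followed the smooth muscle markers with lower values (r = 0.666, adjusted permutation P = 0.023, and rho = 0.611, adjusted permutation P = 0.051). Its r was 0.295 without the 2 farthest libraries, 0.474 without orchiectomized replicate 2 and 0.603 with group means removed. That relation thus depends in part on those libraries. The ratio of Sod3 to those markers did not pass the test in any comparison (exact permutation P = 0.26 to 0.76), nor did its ratio to Myh11 alone (0.18, -0.34 and -0.16 in the 3 comparisons). With DHT against orchiectomy, edgeR called 0 of 8 smooth muscle markers (5 at a P value under 0.05, 2 called by DESeq2, median log2 fold change 0.43), 3 of 8 endothelial markers, all lower, 2 of 8 fibroblast markers, both lower (beside 7.27% of all genes), and 0 of 8 adipocyte markers (1 at a P value under 0.05, 0 by DESeq2). With 1 library left out, 0 to 3 smooth muscle markers were called higher and 2 to 4 fibroblast markers lower. The endothelial and adipocyte counts did not change. All such values share library, depth and tissue makeup.

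**Figure D5:**
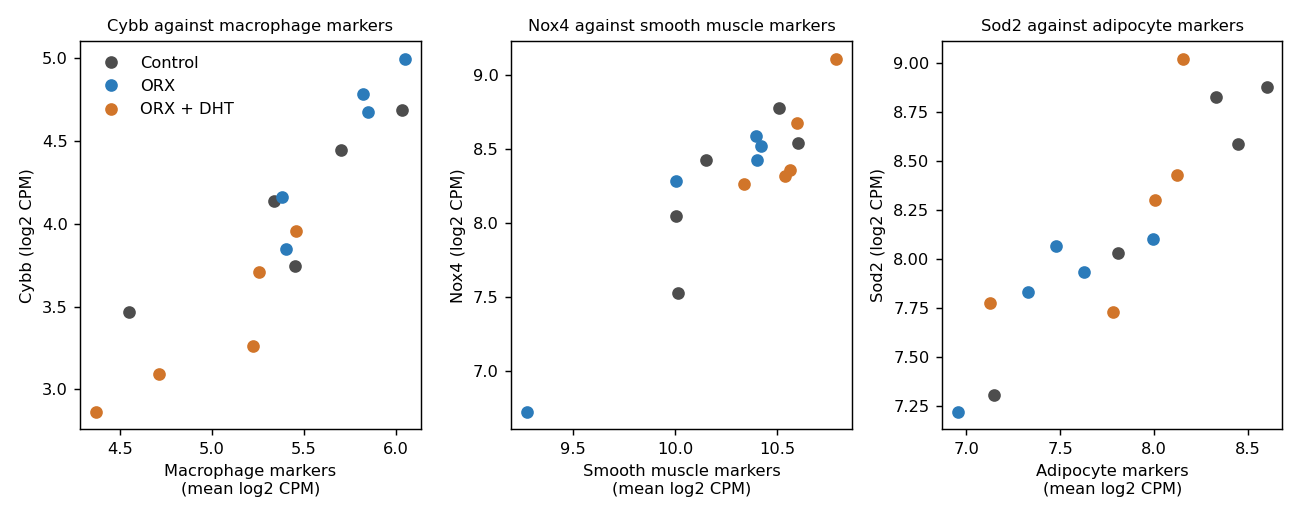
Log2 CPM of Cybb, Nox4 and Sod2 (vertical axes) against the mean log2 CPM of the macrophage, smooth muscle and adipocyte markers (horizontal axes), 1 point per library coloured by group (ORX, orchiectomized). The points rise together in each panel (r = 0.919, 0.909 and 0.898 over 15 libraries), and the lowest point of the Nox4 panel is orchiectomized replicate 2.

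Among the members, the phagocyte subunits varied together, with r = 0.912 for Cybb and Ncf4, 0.915 for Ncf1 and Ncf4 and 0.851 for Cybb and Ncf1 over the 15 libraries, against 0.212 for Cybb and Cyba and -0.486 for Cybb and Nox4. Of all genes tested, those most like Cybb in log2 CPM were Cd53, a leukocyte tetraspanin (r = 0.977), Otulinl (0.966) and Fam111a (0.966). The genes most like Nox4 were Itga8, an integrin of smooth muscle (0.977), Kank1 (0.973) and Susd5 (0.971), and those most like Sod3 were Cyb5r3 (0.955), Slc48a1 (0.951) and Cd151 (0.933). These correlations over 15 libraries are descriptions.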

How the data were processed

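RNA-Seq of poly(A)-selected RNA was done on 15 aortas, 5 per group. The files the authors deposited hold whole-number read counts for each symbol and library, not normalized. The submitters' processing notes name STAR, Cufflinks, DESeq2 and mm10 with no role or version. The counting program, its annotation and its use of strand are not given in the sources used here. Entries for reads on no gene (6.26% to 14.4% of the counted reads) or on several genes (1.34% to 1.97%) were left out.

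The quasi-likelihood test of edgeR 4.0.16 (R 4.3.3) was run on all 15 libraries, with the 3 groups and no covariate, filterByExpr (minimum count 10, minimum total 15) and TMM normalization. Calls used an unadjusted P value under 0.01, and Benjamini-Hochberg adjusted P values cover all 14121 genes tested. Log2 CPM used a prior count of 3. For ratios, exact permutation tests (two-sided) set 5 against 5 libraries (smallest P value 0.0079), and correlations by 100000 permutations (smallest P value 1e-05). The edgeR fit was run on simulated counts for orchiectomized against control mice only, with an outcome not reported here, and the other fits were not. The chi-square per degree of freedom of the 30 pairs of libraries within groups was 11.3 to 126, as a check for a library deposited a second time. Lengths and exon overlaps came from GENCODE M21 (GRCm38), and P values of comparisons between groups measure the spread between mice. Those of correlations came from shuffling the 15 libraries without regard to group, so differences between groups enter them. DESeq2 1.42.0, RLE size factors, other filters, fits of only the groups compared, a replicate block, a robust fit, another prior count and leaving out each library were alternatives. Named genes are the 9 members, genes of the 4 pathway lists called in the first 2 comparisons, up to 3 further genes of known role per list, and the 3 genes most correlated with Cybb, Nox4 and Sod3. Cell type markers are given by counts and sums, and the single markers named, and genes that overlap a named gene, were chosen after their values were seen. Some genes are not reported here. The members and lists were chosen with earlier results of these data known. Figures were drawn with matplotlib.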

Additional observations from a re-analysis of the deposited data

Results flagged for a closer look

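Of 39 sets of 5 libraries examined for a value far from the others, 2 had one, and chance flags about 1 in 20 groups. Nox4 in orchiectomized replicate 2 was at 105 CPM, with the nearest of the other 4 orchiectomized libraries at 312 CPM, a gap of 0.74 of the range. The level of Cybb relative to the macrophage markers in DHT replicate 5 was -1.96 on the log2 scale, with the nearest of the other DHT libraries at -1.62, a gap of 0.75 of the range. Without DHT replicate 5 the difference of that ratio from the orchiectomized mice was -0.33 (exact permutation P = 0.0635).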

How the results depend on the processing

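The calls of Cybb and Ncf4 with DHT against orchiectomy held under all alternatives run for them (log2 fold changes -1.31 to -0.99 and -1.78 to -1.25), and that of Ncf1 was lost without orchiectomized replicate 2 (-1.13 to -0.75 over libraries left out) and at the adjusted threshold (adjusted P = 0.0574), which called 2 members. Members called numbered 2 to 3 without 1 library in that comparison, and 0 to 1 in each of the others. The 1 was Ncf1 without control replicate 5 (0.89) or orchiectomized replicate 5 (0.86), Cyba without orchiectomized replicate 3 (0.56), and, against control, Cybb without control replicate 1 (-0.88) or DHT replicate 2 (-0.92). Of 360 member fold changes with 1 library left out, 334 kept direction and call, 1 lost the call, 5 gained it and 20 turned sign; of 144 under other alternatives 136 kept both, 2 gained a call and 6 turned sign. These 6 were changes near 0 in orchiectomized against control mice. Sod3 was -0.0083 with DESeq2 and with RLE size factors, -0.030 with all genes of at least 1 count and -0.0094 with only the groups compared, and Sod1 was -0.024 and -0.00090 under the last 2. Without 1 library, the values that turned ranged in this comparison from -0.25 to 0.12 for Nox4, -0.16 to 0.14 for Sod1 and -0.18 to 0.11 for Sod3, with DHT against orchiectomy from -0.26 to 0.018 for Cyba, and in DHT against control from -0.35 to 0.025 for Sod2.

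The fits of the listed genes and markers with 1 library left out or under other settings were chosen after seeing the data. Listed pathway genes called in DHT against control numbered 4 with DESeq2 and with only the groups compared, and in orchiectomized against control 4 with all genes of at least 1 count. At an adjusted P value under 0.05 they numbered 0, 3 and 1 in the 3 comparisons. Without 1 library they ranged over 1 to 4, 3 to 6 and 2 to 4. The cause of these shifts was not tested.

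Same-numbered libraries did not clearly deviate together (r from -0.466 to 0.463 over 15 pairs, 5 above 0.1, 3 libraries closest to their own number). These values gave no sign that the numbers pair the mice, but so few pairs cannot exclude it. A fit with the replicate block called 3 members with DHT against orchiectomy, 1 in orchiectomized against control (Ncf1, 0.72) and 1 in DHT against control (Cybb, -0.76).

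Relative to Cd68 alone, Cybb was 0.43 lower with DHT than after orchiectomy (-0.43, exact permutation P = 0.0556). Without 1 library, Cybb relative to macrophage markers ranged over 0.01 to 0.20, -0.50 to -0.33 and -0.40 to -0.22 in the 3 comparisons, Nox4 relative to smooth muscle markers over -0.12 to 0.14, -0.17 to 0.036 and -0.15 to 0.036, Sod3 relative to these markers over 0.07 to 0.26, -0.32 to -0.14 and -0.17 to 0.013, Cybb relative to Nox4 over 0.08 to 0.79, -1.79 to -1.08 and -1.19 to -0.73, and Cybb relative to Cyba over -0.23 to 0.23, -1.23 to -0.78 and -1.12 to -0.85. Depth limits Ncf4 (11 to 111 counts) and Nox1 (3 counts in all) most.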
